A study of Mus musculus with 12 samples.

Results

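The genes of MHC class I antigen presentation and of the immunoproteasome were followed in bone marrow-derived macrophages (BMDM) and in fibroblasts kept in their conditioned medium. The members were chosen by symbol. They are the heavy chains H2-K1 and H2-D1, their light chain B2m, the peptide transporter and its loading factor (Tap1, Tap2 and Tapbp), the immunoproteasome subunits Psmb8, Psmb9 and Psmb10, and the class I transactivator Nlrc5. These are 10 of the 32544 genes in the table, and 10 of 10 were among the 14285 genes that passed the filter on low counts. Polyadenylated RNA was sequenced in 12 libraries, 3 in each of 4 groups. The BMDM came from LysMCre mice, labelled WT, or from LysMCre mice that in addition carried floxed Egln1 alleles, labelled PHD2cko. Both genotypes thus carried LysM-Cre, which is active in myeloid cells and need not recombine every allele. Bone marrow cells were differentiated for 7 days with L929-conditioned medium, and RNA was taken 24 h after seeding. The other 6 libraries came from NIH/3T3, an established mouse fibroblast line, after serum starvation and 72 h in medium that WT or PHD2cko BMDM had conditioned for 24 h. The oxygen condition of the sequenced cultures was not given in the sources used here. The replicates were triplicate cultures, and nothing states that they came from separate mice. The p-values therefore measure the spread between these cultures.

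MHC class I molecules show peptides from the inside of the cell to CD8 T cells. The proteasome cuts proteins into peptides, the TAP transporter carries them into the endoplasmic reticulum, and tapasin holds an empty heavy chain and β2-microglobulin at the transporter until a peptide is bound. Interferon exchanges 3 catalytic subunits of the constitutive proteasome (Psmb5, Psmb6 and Psmb7) for those of the immunoproteasome (Psmb8, Psmb9 and Psmb10), and NLRC5 switches on many of these genes together. Macrophages carry this machinery at rest, whereas fibroblasts hold little of it until interferon reaches them.

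Library totals ran from 15516465 to 25199770 estimated counts. Egln1, which encodes PHD2, was at 55.8, 54.7 and 55.6 CPM (counts per 1000000 after TMM normalisation) in WT BMDM and at 68.8, 68.3 and 71.6 CPM in the BMDM libraries labelled PHD2cko. The targeted gene therefore rose with the PHD2cko label (log2 fold change 0.33 ± 0.0527 SE, adjusted p = 0.00203, edgeR quasi-likelihood test), and PHD2cko below names the label of a library. A count per gene does not show whether the floxed exon was lost, and a value per exon was not used here. All 25 macrophage markers were above 0 in both BMDM groups, and the 12 fibroblast markers summed to between 8.08 and 16.2 CPM there. In NIH/3T3 the fibroblast markers summed to at least 32370 CPM in every library. The library of NIH/3T3 in WT medium with replicate number 1 stood apart from the other two, since its counts differed from theirs by a chi-square of 24.8 and 26.9 per gene's degree of freedom, and theirs from each other by 2.35.

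The promoters of the heavy chain genes are shown first, because their sequences carry the elements through which the members are known to be switched on together. Promoter windows of RefSeq (GRCm38.p6), 250 bases before to 50 bases after each start site, were matched for 8 of the 10 members, and none was matched for Tap2 and Nlrc5. A few motifs were searched on both strands, with letters chosen while the sequences were in view. The κB letters GGGGATTCCC, the core of the class I enhancer A, were taken from the H2-K1 window, so its own match was fixed in advance. They occurred in 35 of 32851 windows (0.107%), and H2-K1 and H2-D1 were the members with a match. In both genes they were followed after the same gap by TTTCNNTTC, the reverse complement of the interferon-stimulated element GAANNGAAA, which 7.52% of windows hold on either strand. The stretch of H2-K1 lies at chr17:34000429-34000458 on the minus strand and that of H2-D1 at chr17:35262923-35262952 on the plus strand, inside an annotated exon of H2-D1. The capitals mark both motifs.
H2-K1: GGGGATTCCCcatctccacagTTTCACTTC
H2-D1: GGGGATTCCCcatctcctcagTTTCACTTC
These stretches were identical at 29 of 30 bases.

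Closer to the start site lay TGACG, the core of the X box, and ATTGG, the core of the Y box, to which the complex that NLRC5 joins is known to bind. Taken alone these letters are common, since TGACG occurred in 20.8% and ATTGG in 37.4% of windows. The gap searched, 20 bases, was the one seen in H2-K1, so its own match was fixed in advance. With exactly 20 bases between them the cores occurred in 31 windows (0.0944%) of 27 genes, among them H2-K1, H2-D1 and B2m. The capitals mark both cores, which in B2m lie at chr2:122147609-122147638 on the plus strand, in H2-K1 at chr17:34000359-34000388 on the minus strand and in H2-D1 at chr17:35262993-35263022 on the plus strand.
H2-K1: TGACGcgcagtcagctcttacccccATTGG
H2-D1: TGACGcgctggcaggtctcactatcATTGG
B2m: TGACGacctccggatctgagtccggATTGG
Outside the cores the B2m stretch had little in common with the others. It matched H2-K1 at 13 and H2-D1 at 12 of 30 bases, whereas H2-K1 matched H2-D1 at 23. B2m also held GAAANNGAAA, the longer interferon element of 3.44% of windows.

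Tap1 and Psmb9 are transcribed away from each other from start sites 226 bases apart, and 1 TGACG, at chr17:34187470-34187474, lay in both windows. It is shown on the strand of Tap1, inside an annotated exon of Psmb9, with the capitals marking these letters. It was picked because Tap1 is the member that passed the test in BMDM. The stretch spans chr17:34187470-34187499, and no ATTGG followed at the spacing seen above.
Tap1: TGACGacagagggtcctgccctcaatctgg
The Psmb8 window held the letters TTCNNNGAA, which fit the γ-activated site of interferon-γ signalling and occurred in 8.3% of windows. The stretch that holds them, at chr17:34198088-34198116 on the plus strand in an annotated exon of Psmb8, is shown with these letters in capitals, because Psmb8 is the member that passed the test in NIH/3T3.
Psmb8: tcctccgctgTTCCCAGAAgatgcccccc
A match of letters is a description and no evidence of binding.

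Most members were slightly lower in the BMDM libraries labelled PHD2cko, and 1 of the 10, Tap1, passed the test. A log2 fold change below 0 was found for 8 members, and for 8 the 3 PHD2cko libraries all lay below the 3 WT libraries; 15.6% of all genes tested did so. The median log2 fold change of the 10 members was −0.21, against 0.00022 for all genes. At an adjusted p under 0.05, 3.35% of all genes were lower and 6.73% differed in either direction. In bulk RNA, less RNA per cell and fewer cells of a type cannot be told apart. The summed macrophage markers also lay lower, at 37710 to 38950 CPM with the PHD2cko label and at 42630 to 43570 CPM with WT, although 0 of 25 markers passed the edgeR test (2 at an unadjusted p under 0.05, and 1 each with DESeq2 and limma-voom), and their part in the members' levels was not tested.

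**Figure D1:**
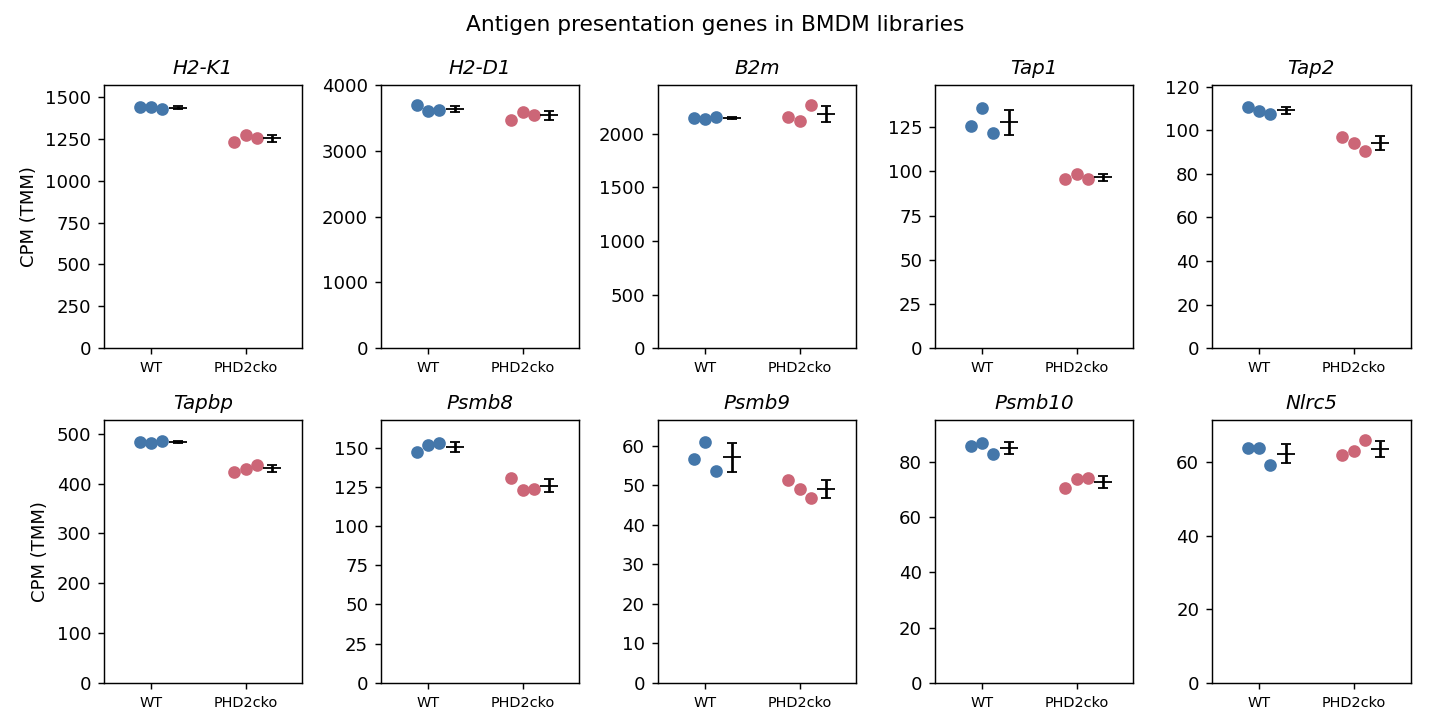
CPM (TMM, linear axes from 0) of the 10 members in the 6 BMDM libraries, 1 point per library, with the mean and SD beside each group (n = 3). The points of PHD2cko lie below those of WT in 8 of the 10 panels, and the groups overlap for B2m and Nlrc5.

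Among the molecules that reach the cell surface, H2-K1, a heavy chain that binds the peptide, was at 1442, 1441 and 1427 CPM in WT and at 1233, 1274 and 1253 CPM with the PHD2cko label. The groups did not overlap, yet the difference did not pass the test (log2 fold change −0.20 ± 0.128 SE, adjusted p = 0.475, edgeR). H2-D1, the other classical heavy chain, was at 3698, 3610 and 3629 CPM in WT and at 3475, 3600 and 3550 CPM with the PHD2cko label, so that its groups nearly touched. B2m, the light chain that every class I molecule shares, was at 2152, 2141 and 2157 CPM in WT and at 2157, 2122 and 2267 CPM with the PHD2cko label. The B2m groups overlapped and the log2 fold change was 0.02 ± 0.0874 SE. Reads of the heavy chains are shared between genes: 22.8% of the 31-base words in the transcripts of H2-K1 and 26.9% of those in H2-D1 occur in transcripts of other genes, H2-K1 and H2-D1 being each other's closest. Summed over the class I heavy chain rows, of which H2-K1 and H2-D1 made up 86.1% of the counts in WT BMDM, the log2 fold change was −0.11 ± 0.0895 SE (adjusted p = 0.608, edgeR).

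Peptide transport and loading carried the difference that passed the test. Tap1, which with Tap2 forms the channel that pumps peptides into the endoplasmic reticulum, was at 126, 136 and 122 CPM in WT and at 95.5, 98.8 and 95.8 CPM with the PHD2cko label. It was 1.32-fold lower (log2 fold change −0.40 ± 0.0679 SE, adjusted p = 0.0029, edgeR), with every library of one label below every library of the other. Tap2 was at 111, 109 and 108 CPM in WT and at 97.1, 94.4 and 90.7 CPM with the PHD2cko label. The Tap2 groups did not overlap either, and its log2 fold change of −0.22 ± 0.0671 SE missed the threshold (adjusted p = 0.0824, edgeR). Tapbp, which encodes tapasin, was at 484, 482 and 486 CPM in WT and at 424, 430 and 438 CPM with the PHD2cko label (log2 fold change −0.17 ± 0.0653 SE, adjusted p = 0.167, edgeR). Exons of Tap1 and Psmb9 overlap over 212 bases on opposite strands, and exons of Tapbp, Tap2 and Psmb8 overlap those of other genes over 904, 533 and 498 bases. The sources used here do not say whether reads kept their strand.

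The 3 immunoproteasome subunits lay below WT in every library labelled PHD2cko by a similar measure, without passing the test, and their constitutive counterparts did not. Psmb8 (β5i), a chymotrypsin-like subunit, was at 147, 152 and 153 CPM in WT and at 130, 123 and 123 CPM with the PHD2cko label. Psmb9 (β1i), whose activity favours peptides that class I can bind, was at 56.7, 61.0 and 53.6 CPM in WT and at 51.4, 49.0 and 46.9 CPM with the PHD2cko label. Psmb10 (β2i), the trypsin-like subunit, was at 85.8, 86.9 and 82.7 CPM in WT and at 70.4, 73.7 and 74.0 CPM with the PHD2cko label. None of these groups overlapped. The log2 fold changes were −0.26 ± 0.14, −0.22 ± 0.0806 and −0.23 ± 0.1 (SE), and none passed the edgeR test (adjusted p = 0.352, 0.147 and 0.235 for Psmb8, Psmb9 and Psmb10). Psmb5, Psmb6 and Psmb7, their counterparts in the constitutive proteasome, had log2 fold changes of −0.08, 0.06 and 0.02. Their groups overlapped except for Psmb6, whose libraries labelled PHD2cko, at 76.5 to 77.6 CPM, lay just above the 71.4 to 76.2 CPM of WT.

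Per kilobase of transcript, the share of the immunosubunit in each pair was lower in every library labelled PHD2cko than in every WT library. Psmb8 made up 62.2, 62.3 and 63.7% of Psmb8 plus Psmb5 in WT and 59.0, 59.2 and 61.2% with the PHD2cko label. Psmb9 made up 31.9, 32.1 and 29.8% of its sum with Psmb6 in WT and 28.1, 27.4 and 26.3% with the PHD2cko label. Psmb10 made up 53.5, 54.1 and 52.4% of its sum with Psmb7 in WT and 46.9, 48.8 and 51.6% with the PHD2cko label. The log2 ratios of the pairs differed by −0.18, −0.28 and −0.25. Each gave p = 0.1 in a two-sided exact permutation test, the smallest that 3 against 3 libraries allow, and 0.15 after adjustment over the 6 ratios tested in both cell types.

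**Figure D2:**
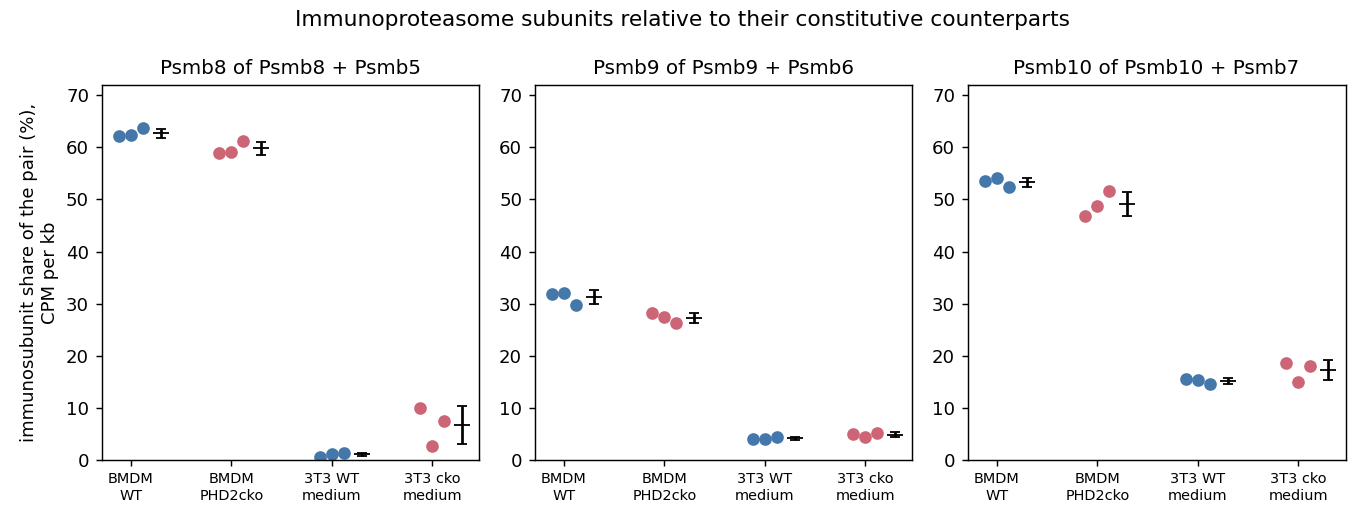
Share (%) of each immunoproteasome subunit in its sum with the constitutive counterpart, in CPM per kilobase, by library (points) with the mean and SD beside each group (n = 3), in the 4 groups. The shares of Psmb8 lie between 59.0 and 63.7% in BMDM and between 0.625 and 9.96% in NIH/3T3.

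Nlrc5, the transactivator of class I genes, was at 63.8, 63.7 and 59.3 CPM in WT and at 61.9, 62.9 and 65.9 CPM with the PHD2cko label. These groups overlapped (log2 fold change 0.03 ± 0.117 SE). Nlrc5 and Psmb10 lie on chromosome 8, as does the targeted gene Egln1. Of 731 genes tested there, 12.6% differed in BMDM at an adjusted p under 0.05, against 6.79% of the 13853 tested genes with a known chromosome; whether this bears on Nlrc5 or Psmb10 was not tested.

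The number of members past the threshold in BMDM differed with the libraries fitted. Fitted on the 6 BMDM libraries alone, with 12282 genes kept, 7 of the 10 members were lower, namely H2-K1, Tap1, Tap2, Tapbp, Psmb8, Psmb9 and Psmb10, while 10.8% of all genes were lower and 20.6% differed in that fit. With NIH/3T3 libraries left out of the joint fit, the count was 3 without WT medium replicate 1 (13.0% of all genes differed in that fit), 2 without PHD2cko medium replicate 1 (6.42%) and 4 without PHD2cko medium replicate 2 (7.82%).

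**Figure D3:**
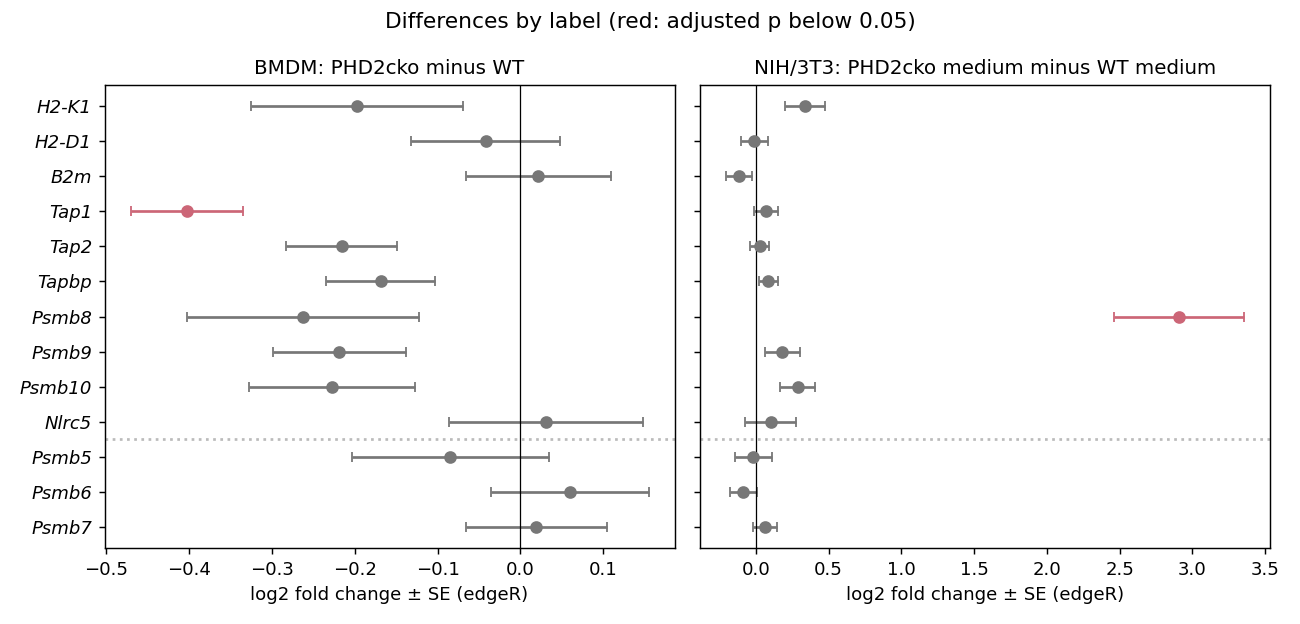
Log2 fold change with its SE (edgeR) by label for the 10 members and, under the dotted line, the 3 constitutive subunits, in BMDM (left) and NIH/3T3 (right), with axes of different range. Red marks an adjusted p under 0.05, which holds for Tap1 (−0.40) in BMDM and Psmb8 (2.91) in NIH/3T3.

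Around the members, genes of the same pathway were described by lists. Of 20 class I related genes tested, 0 were higher and 2 lower with the PHD2cko label in BMDM, where 3.35% of all genes were lower. Both are non-classical heavy chains, H2-T22, a ligand of γδ T cells, and H2-T24. H2-T22 was at 139, 142 and 139 CPM in WT and at 108, 109 and 111 CPM with the PHD2cko label (log2 fold change −0.36 ± 0.0474 SE, adjusted p = 0.000481, edgeR). H2-T24 fell by 0.46 on the log2 scale. The list's median was −0.05, and in the BMDM libraries alone 7 of its 16 genes tested were lower, as were 10.8% of all genes in that fit.

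Of 14 genes of peptide loading and trimming, 5 were lower with the PHD2cko label and 0 higher, with a median of −0.12, beside the 3.35% of all genes that were lower. Ide, an insulin-degrading peptidase, was at 115, 117 and 106 CPM in WT and at 58.8, 54.6 and 56.8 CPM with the PHD2cko label, a log2 fold change of −0.98 ± 0.0559 SE (adjusted p = 5.73e-07, edgeR). Sec61a1, the pore through which new proteins enter the endoplasmic reticulum, fell by 0.36 on the log2 scale. The chaperones Hspa5 and Canx, of which Canx holds new heavy chains, fell by 0.30 and 0.21. Of the constitutive proteasome core 0 of 14 genes passed the edgeR test (median 0.0084), with 0 at an unadjusted p under 0.05 and 0 with DESeq2 or limma-voom. Of the proteasome activators and assembly factors 0 of 10 passed, with 3 at an unadjusted p under 0.05 and 0 with DESeq2 or limma-voom. In the BMDM libraries alone, 7 of the 14 loading genes and 2 of the 10 activators and assembly factors were lower, and still 0 of the 14 core subunits differed, in a fit where 10.8% of all genes were lower and 20.6% differed. Without NIH/3T3 WT medium replicate 1, the joint fit called 7 loading genes, 4 of 21 class I related genes and 969 of all 14488 genes lower.

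Among 32 genes of interferon signalling and its regulators, 4 were lower with the PHD2cko label in the edgeR test, against 3.35% of all genes, 0 were higher, and 28 had a log2 fold change below 0. In either direction DESeq2 called 9 of them and limma-voom 7, against 7.88 and 7.46% of all genes. Ciita, the class II counterpart of Nlrc5, was at 89.5, 78.3 and 78.3 CPM in WT and at 48.0, 44.9 and 49.6 CPM with the PHD2cko label (log2 fold change −0.79 ± 0.0783 SE, adjusted p = 5.02e-05, edgeR). Socs3 and Socs1, which damp cytokine signalling, fell by 0.56 and 0.89, and Irf2, an antagonist of Irf1, fell by 0.28. Socs1 was near the detection limit, at 1.21 to 1.69 CPM in WT. Irf1, an activator of Tap1 and Psmb9, missed the threshold with a log2 fold change of −0.25 ± 0.0725 SE (adjusted p = 0.0577, edgeR). Rfx5, a subunit of the complex at the X box, had −0.20 ± 0.0923 SE (adjusted p = 0.262, edgeR). In the BMDM libraries alone 16 of the 32 genes were lower and 1 higher, while 10.8% of all genes were lower and 20.6% differed. Without NIH/3T3 WT medium replicate 1 the joint fit called 12 lower and 1 higher, with 13.0% of all genes differing.

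In NIH/3T3, Psmb8 was the 1 member of 10 that passed the test, and it was higher in the PHD2cko medium. In these fibroblasts 8.93% of all genes were higher and 15.7% differed. The median log2 fold change of the members was 0.09, and the groups overlapped for 9 of the 10 members, while 31.9% of all genes had groups that did not overlap and 15.4% did so with the PHD2cko medium higher. Psmb8 had 8, 14 and 11 counts (0.407, 0.508 and 0.581 CPM) in WT medium and 105, 23 and 91 counts (5.40, 1.33 and 4.41 CPM) in PHD2cko medium, in the order of replicates 1, 2 and 3. Replicate 2 was thus far lower than the other libraries in PHD2cko medium, but above every library in WT medium. The log2 fold change was 2.91 ± 0.446 SE (adjusted p = 0.000925, edgeR). Even there Psmb8 stayed far below the 123 CPM of the lowest BMDM library.

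**Figure D4:**
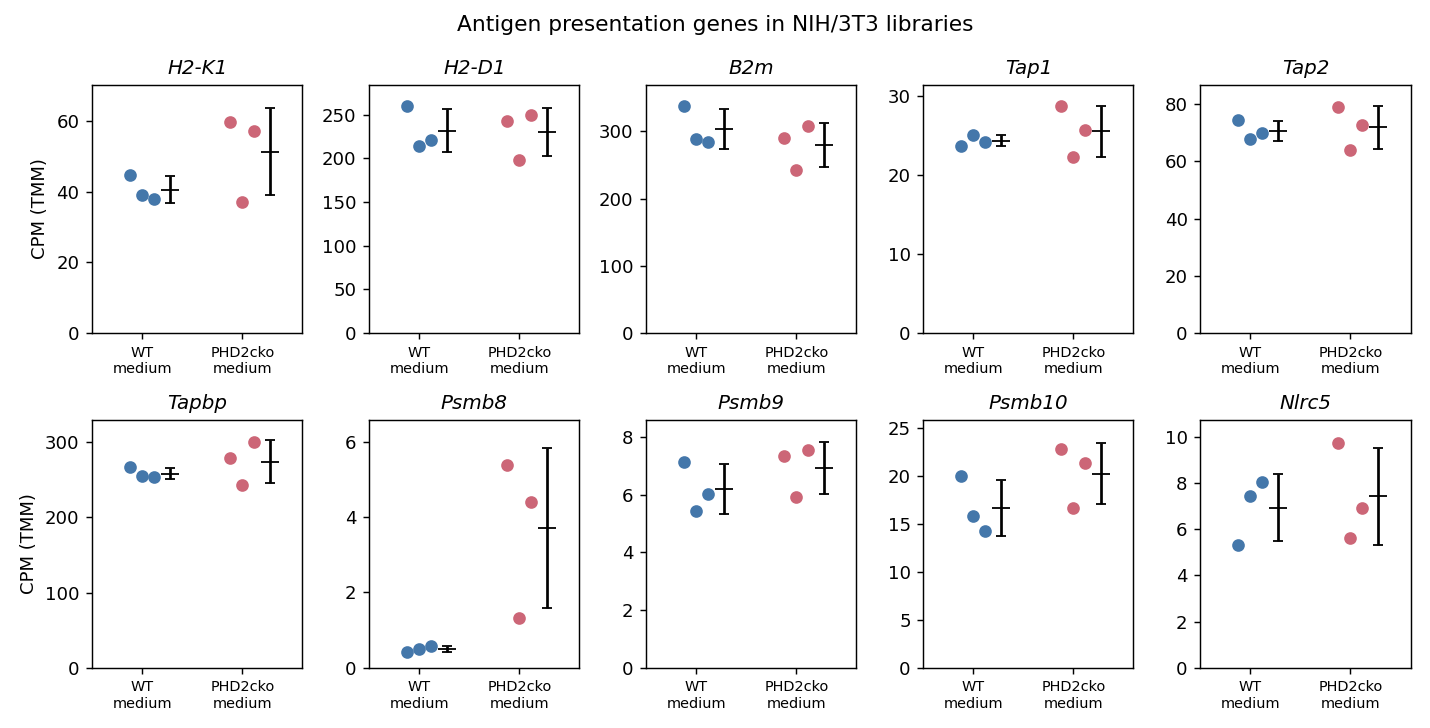
CPM (TMM, linear axes from 0) of the 10 members in the 6 NIH/3T3 libraries, 1 point per library, with the mean and SD beside each group (n = 3). For Psmb8 the 3 libraries in PHD2cko medium, 1.33 to 5.40 CPM, lie above those in WT medium, and the groups overlap in the other 9 panels.

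The fibroblast libraries in PHD2cko medium also held macrophage transcripts. The 25 macrophage markers summed to 40.6, 41.8 and 41.5 CPM in WT medium and to 985, 235 and 893 CPM in PHD2cko medium, with 0 of 25 at 0 in either group. In total, 24 of the 25 were higher in the edgeR test. Measured against BMDM of the matching label, these sums were 0.0944, 0.0970 and 0.0964% in WT medium and 2.58, 0.616 and 2.34% in PHD2cko medium, again in the order of replicates 1, 2 and 3. Psmb8 followed the same order within the PHD2cko medium libraries. At these shares BMDM would supply 51.1 of the 105, 10.9 of the 23 and 49.5 of the 91 Psmb8 counts. With the shares subtracted from every library, Psmb8 was at 6, 11 and 9 counts in WT medium. In PHD2cko medium it was at 54, 12 and 42 counts, and it still passed the test, with a log2 fold change of 2.28. The counts left in PHD2cko medium again followed the order of the marker shares, and replicate 2, at 12, was close to WT medium. Whether the counts left come from the fibroblasts was not tested. Without PHD2cko medium replicates 1, 2 or 3 in turn, as for the other 9 libraries, Psmb8 stayed past the threshold, with a log2 fold change of 2.56 to 3.28.

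**Figure D5:**
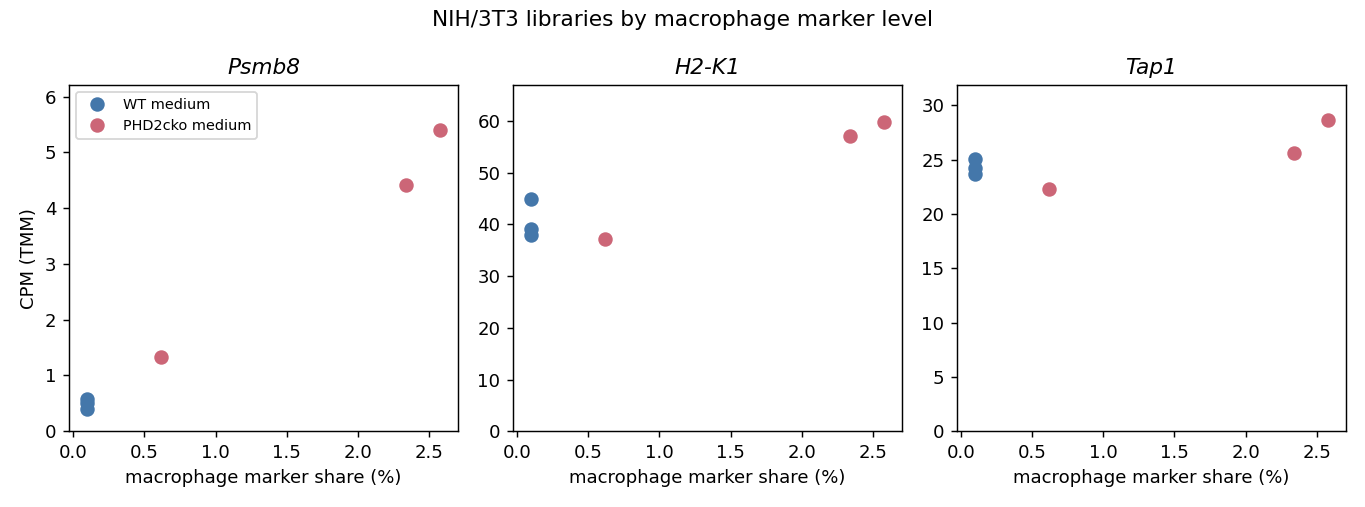
CPM (TMM) of Psmb8, H2-K1 and Tap1 against the summed macrophage markers as a percentage of their level in BMDM, in the 6 NIH/3T3 libraries (1 point each; blue WT medium, red PHD2cko medium). The marker shares are 0.0944 to 0.0970% in WT medium and 0.616 to 2.58% in PHD2cko medium, where the library with the lowest share also has the lowest level of each gene.

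After Psmb8, the heavy chains had the largest part of their counts at that share. H2-K1 was at 44.9, 39.1 and 38.0 CPM in WT medium and at 59.8, 37.1 and 57.2 CPM in PHD2cko medium (log2 fold change 0.34 ± 0.136 SE, adjusted p = 0.115, edgeR). Its lowest library in PHD2cko medium was below every library in WT medium. The shares would supply 43.8, 17 and 41.8% of the H2-K1 counts in PHD2cko medium. With them subtracted, H2-K1 was lower in PHD2cko medium (log2 fold change −0.24, adjusted p = 0.0333, edgeR). H2-D1, at 260, 214 and 221 CPM in WT medium and at 243, 198 and 250 CPM in PHD2cko medium, then also passed the test, at −0.33 (adjusted p = 0.00653). B2m was at 337, 289 and 284 CPM in WT medium and at 290, 243 and 307 CPM in PHD2cko medium, and passed with −0.25 (adjusted p = 0.0398) after subtraction. Before subtraction H2-D1 and B2m had log2 fold changes of −0.01 and −0.11 and overlapping groups. The p-values after subtraction take the remainder as counted, so they hold no error of the shares or of the BMDM level used.

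The transporter genes and the other subunits differed little by medium. Tap1 was at 23.7, 25.1 and 24.2 CPM in WT medium and at 28.7, 22.3 and 25.6 CPM in PHD2cko medium. Tap2 ran from 67.7 to 74.6 CPM in WT medium and from 63.9 to 79.1 CPM in PHD2cko medium, and Tapbp from 253 to 267 and from 243 to 300 CPM. Their log2 fold changes were 0.07 ± 0.0792, 0.03 ± 0.0678 and 0.09 ± 0.0656 (SE). Psmb9 was at 7.12, 5.44 and 6.03 CPM in WT medium and at 7.35, 5.90 and 7.56 CPM in PHD2cko medium, and Psmb10 was at 19.99, 15.9 and 14.3 CPM and at 22.8, 16.7 and 21.4 CPM. Psmb10 had a log2 fold change of 0.29 ± 0.12 SE (adjusted p = 0.134, edgeR) and Psmb9 of 0.18 ± 0.121 SE. Nlrc5 was low, at 5.29, 7.44 and 8.03 CPM in WT medium and at 9.71, 5.61 and 6.93 CPM in PHD2cko medium. Leaving out PHD2cko medium replicate 2, the one with the lowest marker sum in that medium, brought H2-K1, Tapbp and Psmb10 past the threshold beside Psmb8, and leaving out WT medium replicate 1 did so for Psmb10. In these fits 13.5% and 19.0% of all genes differed.

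The share of Psmb8 in its sum with Psmb5, per kilobase, was 0.625, 1.07 and 1.36% in WT medium and 9.96, 2.68 and 7.48% in PHD2cko medium. For Psmb9 with Psmb6 the means were 4.14 ± 0.251 and 4.85 ± 0.405% (SD, n = 3), and for Psmb10 with Psmb7 they were 15.2 ± 0.595 and 17.2 ± 1.92%. The log2 ratios differed by 2.68, 0.24 and 0.21, with p = 0.1, 0.2 and 0.3 in two-sided exact permutation tests and 0.15, 0.24 and 0.3 after adjustment over the 6 ratios.

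Of the 32 interferon genes tested, 9 were higher in PHD2cko medium and 0 lower, with a median log2 fold change of 0.14, beside 8.93% of all genes that were higher. With the macrophage share subtracted 6 were higher, as were 969 of all 14285 genes, of which 13.2% differed in either direction. Irf8, a macrophage transcription factor, had 0, 0.0363 and 0 CPM in WT medium and 4.68, 1.56 and 5.04 CPM in PHD2cko medium. Nlrx1, a mitochondrial relative of Nlrc5, was at 0 in every WT medium library and at 0.514, 0.347 and 1.31 CPM in PHD2cko medium. In BMDM labelled PHD2cko, Irf8 was at 275, 280 and 284 CPM and Nlrx1 at 19.7, 20.1 and 18.6 CPM. In PHD2cko medium both genes were lowest in replicate 2, which had the lowest marker share. How much of these rises the macrophage share supplies was not tested. Nfya, a subunit of the factor at the Y box, and Nfkb1, a subunit of NF-κB, rose by 0.28 ± 0.0484 and 0.20 ± 0.0404 SE on the log2 scale. Irf1 passed with a log2 fold change of 0.26 ± 0.0773 SE (adjusted p = 0.0423, edgeR) although 1 library in PHD2cko medium lay within the range of WT medium.

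Of the 20 class I related genes, H2-T24 was higher in PHD2cko medium, at 1.17, 1.20 and 0.952 CPM in WT medium and 4.11, 2.20 and 2.18 CPM in PHD2cko medium (log2 fold change 1.34 ± 0.246 SE, adjusted p = 0.00292, edgeR). Fcgrt, the neonatal Fc receptor, fell by 0.28. Among the 14 loading genes Blmh, a bleomycin hydrolase that trims peptides, rose by 0.22 and Calr, calreticulin, fell by 0.20. Of the core proteasome subunits 0 of 14 passed the edgeR test, with 0 at an unadjusted p under 0.05 and 0 with DESeq2 or limma-voom, and 6 did, each of them higher, when WT medium replicate 1 was left out, a fit in which 1683 of 14488 genes were higher and 19.0% differed. Of the activators and assembly factors 0 of 10 passed in edgeR, with 2 at an unadjusted p under 0.05, 1 with DESeq2 and 0 with limma-voom. Without PHD2cko medium replicate 2, 13 interferon genes and 3 class I related genes were higher and 0 loading genes were, while 1262 of all 14504 genes were higher and 13.5% differed.

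The label went with different changes in the 2 cell types for Tap1 and Psmb8. The change in NIH/3T3 minus that in BMDM, tested as an interaction in the same edgeR fit, was 0.47 ± 0.104 SE for Tap1 (adjusted p = 0.0101) and 3.17 ± 0.468 SE for Psmb8 (adjusted p = 0.0008). These 2 of 10 members compare with 12.3% of all genes that differed and 7.71% with a positive difference. Psmb10 had the next smallest adjusted p, 0.0506 in the same edgeR fit, with a difference of 0.51 ± 0.157 SE. Of the 10 members, 9 had a difference above 0. With the macrophage shares subtracted, the difference for H2-K1 went from 0.54 to −0.04, while Tap1 and Psmb8 kept their calls. The count was 7 without WT medium replicate 1, where 16.0% of all genes differed, and also 7 without PHD2cko medium replicate 2, where 12.2% did. In the lists, 28 of 32 interferon genes had a more positive log2 fold change in NIH/3T3 than in BMDM, and 14 of them passed the interaction test. With the macrophage shares subtracted 9 passed with a more positive change, as did 752 of all 14285 genes, of which 9.77% differed in either direction. Without subtraction, a more positive change in NIH/3T3 also passed for H2-T24, H2-T22 and H2-Q4 of the class I related genes. The same held for Ide and Sec61a1 of the loading genes and for Psme4, a proteasome activator, and a more negative change passed for Fcgrt.

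In resting level the cell types stood far apart: the 10 members were higher in WT BMDM than in NIH/3T3 in WT medium, with no overlap between libraries, where 40.4% of all genes were higher. Together the members took up 0.748 to 0.750% of all counts in WT BMDM and 0.100 to 0.112% in NIH/3T3 in WT medium. The smallest differences were those of Tap2 (1.55-fold) and Tapbp (1.88-fold). Tap1, Psmb10, B2m, Nlrc5 and Psmb9 were between 5.10-fold and 9.29-fold higher, H2-D1 15.7-fold and H2-K1 35.4-fold. Psmb8 was 298-fold higher, on 8 to 14 counts per NIH/3T3 library. Their log2 fold changes ran from 0.63 to 8.22, with adjusted p from 1.18e-06 down to 3.59e-13 in the edgeR test. The reference sequence is that of C57BL/6, NIH/3T3 cells come from Swiss mice, and what allele differences at H2-K1 and H2-D1 do to these levels was not tested. Of the constitutive subunits, Psmb5 was also higher in BMDM (1.75-fold, log2 fold change 0.81 ± 0.122 SE), Psmb7 was lower (−0.32 ± 0.0836 SE) and Psmb6, at −0.20 ± 0.0937 SE, did not pass the test. Of the 14 core subunits 11 were lower in BMDM and 1 higher, where 44.9% of all genes were lower.

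Per kilobase of transcript, the order of the levels in WT BMDM was B2m (2500 ± 9.52 CPM per kb, SD, n = 3), H2-D1 (1734 ± 22), H2-K1 (887 ± 5.18), Tapbp (167 ± 0.622), Psmb8 (92.6 ± 1.93), Psmb10 (64.9 ± 1.66), Tap1 (43.3 ± 2.45), Psmb9 (42.2 ± 2.73), Tap2 (31.7 ± 0.481) and Nlrc5 (8.21 ± 0.34). In that order Tap1 and Psmb9 overlapped and the other neighbours did not. In NIH/3T3 in WT medium the order was B2m (352 ± 34.4 CPM per kb), H2-D1 (110 ± 11.8), Tapbp (89.1 ± 2.58), H2-K1 (25.1 ± 2.28), Tap2 (20.5 ± 1.03), Psmb10 (12.7 ± 2.25), Tap1 (8.24 ± 0.246), Psmb9 (4.58 ± 0.631), Nlrc5 (0.913 ± 0.19) and Psmb8 (0.306 ± 0.0538). Psmb8, the highest immunoproteasome subunit in BMDM, was the lowest member there.

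Patterns over the 12 libraries were compared with that of Nlrc5 by the root mean square difference of centred log2 CPM. The other members were left out of this search. The 5 genes most like Nlrc5 included Sash1 (0.127), Fam53b (0.146), Lrch4 (0.155) and Slc6a6 (0.157). Sash1, for example, had means of 340 and 341 CPM in WT and PHD2cko BMDM and of 37.8 and 39.7 CPM in NIH/3T3 in WT and PHD2cko medium, so that the step lay between the cell types and the labels lay close together, as for Nlrc5.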

How the data were processed

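From single-end NextSeq reads the authors made estimated counts with Kallisto on GRCm38, and deposited them summed to genes and not normalised. The deposited estimates were whole numbers already; how they were rounded, the Kallisto version and its index are not given in the sources used here. All 12 columns were matched to a sample by name. Genes were kept by filterByExpr (14285 of 32544), normalised by TMM and fitted jointly over 4 groups with the quasi-likelihood model of edgeR 4.0.16 in R 4.3.3, with two-sided tests adjusted over the kept genes after Benjamini and Hochberg and called under 0.05. The label contrast in each cell type, WT BMDM against NIH/3T3 in WT medium, and the interaction were tested. Subunit log2 ratios were compared by exact permutation. The macrophage share of an NIH/3T3 library is its summed level of 25 markers over that in BMDM of the same label. For subtraction that share of the mean BMDM profile was removed, and the remainder was tested as if counted. Positions and transcript lengths come from GENCODE vM21 (GRCm38), and words of 31 bases were compared among its transcripts; the word length used by the authors is not given in the sources used here. The edgeR label contrasts within each cell type were run on simulated counts with known changes. The other contrasts, the subtraction, the ratios and the motif search were not checked in this way.

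The members and lists were chosen with earlier results of these data known. Named beside the members are their constitutive counterparts, Irf1, Rfx5, Ciita and Egln1, and up to 4 genes per list and comparison with the smallest adjusted p past the threshold. The 5 genes outside the members nearest to Nlrc5 in pattern are named too. Alternatives were DESeq2 size factors in edgeR, DESeq2 1.42.0, limma 3.58.1 with voom, 2 other filters, 6 libraries alone, a replicate block, summed heavy chains, the subtraction above and each library left out. Some items named by these rules are not reported here.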

Additional observations from a re-analysis of the deposited data

Results flagged for a closer look

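The change by label differed between the cell types for 2 members, by a test of the difference itself (interaction term in edgeR, adjusted over all genes). Tap1 had a log2 fold change of −0.40 in BMDM and 0.07 in NIH/3T3, a difference of 0.473 ± 0.104 SE with an adjusted p of 0.0101 over all genes. It was lower in 3 of 3 BMDM libraries labelled PHD2cko than in every WT library, and its groups overlapped in NIH/3T3. Left-out libraries gave 0.38 to 0.56 and the other alternatives 0.44 to 0.49, each past the threshold. Psmb8 had a log2 fold change of −0.26 in BMDM and 2.91 in NIH/3T3, a difference of 3.17 ± 0.468 SE with an adjusted p of 0.0008. It was higher in 3 of 3 libraries in PHD2cko medium than in every library in WT medium. The difference was 2.54 with the macrophage shares subtracted and 2.83 to 3.54 with libraries left out. In the subtraction the BMDM level of Psmb8 was taken from the libraries of this series, and whether cells carried over in the medium have that level was not tested.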

How the results depend on the processing

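Tap1 in BMDM, Psmb8 in NIH/3T3 and the interaction of both kept direction and call in every alternative that gave a value. The cause of the other shifts was not tested, except that a filter of 10 counts in every library removed Psmb8 and so left 0 members called in NIH/3T3. The count of members called in BMDM (1) was 2 with the DESeq2 Wald test (7.88% of all genes), 7 with the 6 BMDM libraries alone (20.6%), and 1 to 4 with a library left out. In NIH/3T3 (1) it was 2 with the DESeq2 Wald test (16.2% of all genes), 4 with the macrophage share subtracted (13.2%), and 1 to 4 with a library left out. For the interaction (2) it was 5 with the DESeq2 Wald test (13.1%), and 2 to 7 with a library left out. Psmb10 passed there in 5 alternatives that kept every library and without 2 of the libraries in turn.

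Some log2 fold changes changed sign. In NIH/3T3, subtraction took H2-K1 from 0.34 to −0.24 (adjusted p = 0.0333, edgeR) and gave −0.05436 for Nlrc5, and H2-D1 was at 0.001442 with DESeq2 size factors, 0.001753 with the DESeq2 Wald test and 0.002362 with the 6 libraries alone. In the interaction, subtraction took H2-K1 from 0.54 to −0.04085 and gave −0.2883 for H2-D1 and −0.08313 for Nlrc5. Left-out libraries gave −0.007097 to 0.04306 for B2m and −0.003154 to 0.05158 for Nlrc5 in BMDM. In NIH/3T3 they gave −0.07194 to 0.1037 for H2-D1, −0.02 to 0.1559 for Tap1, −0.04705 to 0.1036 for Tap2 and −0.1385 to 0.255 for Nlrc5, and in the interaction −0.0302 to 0.1463 for H2-D1 and −0.1704 to 0.2232 for Nlrc5.

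Over all genes, 961 differed in BMDM, but 2534 with the 6 BMDM libraries alone, 1889 without NIH/3T3 WT medium replicate 1, 527 without WT replicate 1, 535, 596, 603 and 607 without other BMDM libraries. In NIH/3T3 2240 differed, but 912 with its 6 libraries alone, 1319 without PHD2cko medium replicate 1 and 1260 without replicate 3. Same-numbered libraries did not deviate together (correlations −0.040 to 0.016 within cell types), so the numbers were not taken as pairs. The replicate block left 1 member called in BMDM and 1 in NIH/3T3, with Tap1 at −0.40 and Psmb8 at 2.89.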
